A study of Zea mays subsp. mays with 8 samples.

Results

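Broad transcription start loci were described in maize (Zea mays subsp. mays) seedlings. They were chosen from deposited clusters of start sites as loci whose cluster was wider than 10 bp in both tissues and in both lines. Clusters of the 4 sets that overlapped on the same strand were merged into 27756 loci, and 9804 of these held exactly 1 cluster of each set. Of those 9804 loci, 4116 were broad in all 4 sets. Loci whose dominant site, the base with the most tags, moved with tissue in both lines (116 loci) or with line in both tissues (212 loci) were left out. The remaining 3788 broad loci, called members here, made up 38.6% of the 9804 loci and 13.6% of all 27756 loci.

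CAGE (cap analysis of gene expression) located the start sites, by capture of capped RNA and sequencing of a short tag from its 5′ end. Roots and shoots were taken at 14 days from untreated wild type seedlings, with 5 seedlings pooled for each library and 2 libraries in each of 4 groups. The labels name the inbred lines A632 and B73, while the sets in the files are named Mo17 (another inbred line) and B73, with the letters R and S that were read as root and shoot. No label names Mo17, so the sets are called Mo17-named root, Mo17-named shoot, B73 root and B73 shoot, and nothing is said here about A632. PCR ran for 16 cycles in the B73 root libraries and for 14 cycles in the others. The files give 1 value per cluster and set and none per library, so no difference below has a replicate check and none was tested. In bulk tissue, fewer cells of a type and less RNA per cell cannot be told apart.

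RNA polymerase II starts transcription at a promoter either from a narrow peak of a few bases or across a broad stretch with many start bases. In animals and plants, narrow peaks are often linked to TATA-box promoters and to tissue-restricted genes, and broad stretches to genes used in many cell types. The interquantile width, from the 10th to the 90th percentile of a cluster's signal, and a shape score that falls as tags spread over more bases are common measures of this difference.

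The 4 sets differed in depth. Behind the dominant sites stood 2797561 tags in Mo17-named root, 3409185 in Mo17-named shoot, 1267305 in B73 root and 2394924 in B73 shoot, as recovered from the normalized signal. The members held 14.7% of the summed signal of the Mo17-named root set and 19.3% of that of the Mo17-named shoot set. They held 10.7% of that of B73 root and 17.6% of that of B73 shoot. The loci with the highest signals were mostly not broad. Among the 10 loci of the 9804 with the highest geometric mean signal, 0 were members and 8 were sharp (at most 10 bp wide in all 4 sets). Among the top 100, 7 were members and 76 were sharp, and among the top 1000 the counts were 281 and 474. The strongest member stood at rank 30. A total of 2625 loci were sharp in all 4 sets, and they serve as the contrast to the members below.

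The members lay on all 10 chromosomes in shares close to those of all 9804 loci, with 16.3% of members and 16.2% of all loci on chromosome 1. The plus strand carried 51.3% of them. Members stood alone more often than sharp loci. A broad cluster takes in nearby start bases, so the choice by width bears on this count, which is a description. Outside dense runs of clusters (10 or more clusters with gaps of at most 2000 bp), another locus on the same strand lay within 500 bp of 4.71% of members (95% Wilson interval 4.08% to 5.44%). The share was 11.2% of sharp loci (9.92% to 12.5%) and 7.20% of all loci outside such runs (6.69% to 7.74%). A divergent locus lay within 500 bp of 1.80% of members and 1.49% of sharp loci, with intervals that overlapped (1.42% to 2.28% and 1.07% to 2.08%). Intervals here and below cover counting error only, with loci taken as independent. Only 11 members (0.290%) lay in a dense run, against 13.2% of sharp loci and 4.09% of all 9804 loci.

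Because width chose the members, their widths are a description. The median width was 55 bp in Mo17-named root, 60 bp in Mo17-named shoot, 50 bp in B73 root and 58 bp in B73 shoot. The quartiles of width spanned 35 to 88 bp in Mo17-named root, 37 to 92 bp in Mo17-named shoot, 31 to 81 bp in B73 root and 36 to 90 bp in B73 shoot. Both root sets were narrower at the median than the shoot set of their own line, and the B73 root set was the narrowest. No cluster in the files spanned more than 200 bp, so the widest members stood at the upper limit of the lists. In 95 members the narrowest width was 11 bp, just inside the limit, and in 69 other loci it was 10 bp with the other 3 widths above it. The median signal of those 95 members was 12.4 in Mo17-named root, 16.9 in Mo17-named shoot, 6.52 in B73 root and 14.0 in B73 shoot. In the 69 loci just outside it was 12, 14.5, 5.70 and 11.4 in the same order of sets.

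**Figure D1:**
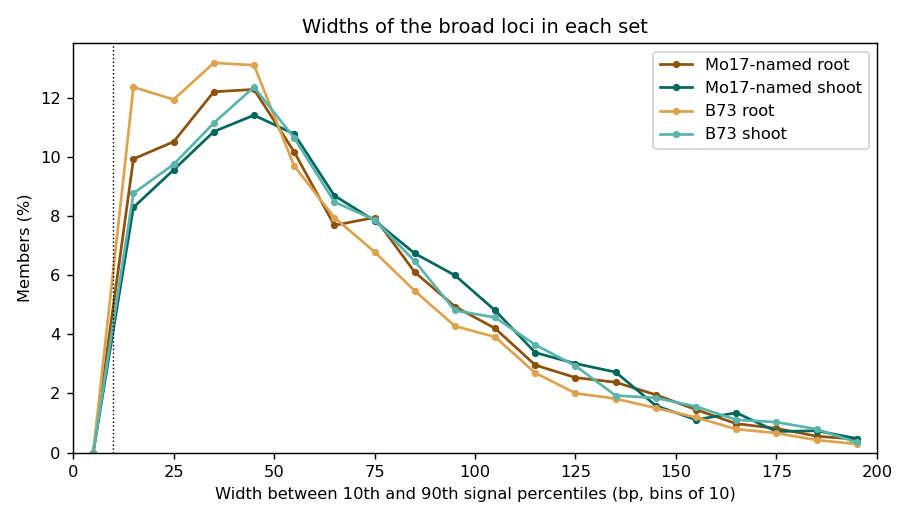
Share of the 3788 members (%, vertical axis) by interquantile width (bp, bins of 10 bp, horizontal axis) in each of the 4 sets, with the 10 bp limit as a dotted line. The curves peak between 30 and 50 bp and fall to a long tail that ends at 200 bp, and the B73 root curve lies highest at small widths.

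Widths of a member varied from set to set. All 4 widths were identical in 405 members (10.7%), differed by at most 1.25 times in 1360 (35.9%) and by at most 2 times in 2502 (66.1%). The shares of all 9804 loci were 12.5%, 24.9% and 47.2%, and those of sharp loci 29.8%, 36.2% and 68.2%. Since width chose the members, nothing is read from the difference. The median difference between the widest and the narrowest of the 4 widths was 23 bp. In 311 members (8.21%) all 4 widths were at least 100 bp, against 3.42% of all loci. The locus with the largest narrowest width, on chromosome 5 at 87759596 to 87759792 (minus strand), had widths of 191, 190, 191 and 195 bp in Mo17-named root, Mo17-named shoot, B73 root and B73 shoot. Its signals of 33.1, 43.7, 27.2 and 41.0, in the same order, lay within 1.6-fold of each other. The next, on chromosome 8 at 132731200 to 132731392 (minus strand), was 193, 188, 188 and 188 bp wide in that order. Its dominant sites were spread from 132731205 to 132731356, so the strongest base changed within a stretch whose ends hardly moved. Positions are those of the files, counted from 1. The build was not given in the sources used here, so no gene is named and no sequence is shown.

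Changes in width of 2-fold or more ran with line more often than with tissue. Widths were at least 2-fold larger in the Mo17-named set than in the B73 set in both tissues in 145 members, and at least 2-fold larger in B73 in both tissues in 116. Widths at least 2-fold larger in root than in shoot in both lines were found in 12 members, and in shoot over root in both lines in 68. Of all 9804 loci, 8.69% were wider in the Mo17-named sets and 6.52% in the B73 sets in this way, and 0.898% in root and 4.86% in shoot. The members' shares were 3.83% and 3.06% by line, and 0.317% and 1.80% by tissue. Line thus exceeded tissue among all loci too. Among the Mo17-named sets, the root cluster was wider than the shoot cluster in 789 members and narrower in 1307, and 1692 were equal. Among the B73 sets, 915 were wider in root, 1627 were narrower and 1246 were equal. Among the 1189 members with at least 20 tags at the dominant site in all 4 sets, the root cluster was narrower in 40.4% (wider in 20.5%) in the Mo17-named sets and narrower in 46.2% (wider in 28.6%) in the B73 sets. The narrower root clusters were therefore also seen among the deeply sampled members. Width follows signal that the authors had scaled to a power law. Its exponent was 1.01 and 1.09 in the Mo17-named and B73 root sets, and 0.877 and 0.888 in the shoot sets. The part of this scaling in the widths was not tested. Among the same deep members the shape score was higher in root in 47.8% (Mo17-named) and 49.1% (B73).

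The shape score is 2 minus the entropy, in bits, of the tags over the bases of a cluster, as checked on clusters of 2 bases, so a cluster with all tags at 1 base scores 2. Its median was -0.81 in Mo17-named root, -0.84 in Mo17-named shoot, -0.63 in B73 root and -0.76 in B73 shoot. Such scores correspond to tags spread evenly over 7.03, 7.15, 6.19 and 6.79 bases in the same order, so a typical broad cluster of 50 to 60 bp held its tags on few bases. The dominant base alone carried a median of 43.9% of the cluster's signal in Mo17-named root, 39.3% in Mo17-named shoot, 49.1% in B73 root and 41.9% in B73 shoot. Shape was divided at a score of -1. It stood above -1, on the peaked side, in all 4 sets in 1417 members (37.4%), against 64.9% of all 9804 loci. It was at most -1 in all 4 sets in 620 members (16.4%), against 6.92% of all loci. Width and score went together only in part, with Spearman's rho across members between -0.46 and -0.42 within a set.

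At one end of this range stood loci with tags on very many bases. The member whose highest score over the 4 sets was the lowest, on chromosome 6 at 66366023 to 66366153 (minus strand), scored -2.92, -2.89, -2.78 and -2.94 in Mo17-named root, Mo17-named shoot, B73 root and B73 shoot, equal to 30.3, 29.6, 27.5 and 30.6 evenly used bases. Its widths were only 48, 63, 62 and 52 bp in that order. All 4 sets had about the same score, while the dominant base was at 3 different positions, 66366083, 66366104 and 66366054. Another member, on chromosome 10 at 87103450 to 87103603 (plus strand), was both dispersed and wide, with scores of -2.65, -2.40, -2.49 and -2.63 and widths of 144, 145, 148 and 145 bp.

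At the other end were loci that were broad by width but peaked by shape. On chromosome 7 at 1987982 to 1988001 (plus strand), the width was 20 bp in all 4 sets while the dominant base held 87.0% of the signal in Mo17-named root, 86.3% in Mo17-named shoot, 86.4% in B73 root and 89.1% in B73 shoot. Its scores were 1.25, 1.43, 1.38 and 1.51 in that order, equal to fewer than 2 evenly used bases. The strongest of all members, on chromosome 4 at 127723387 to 127723544 (plus strand), had the same form, with a width of 83 bp in every set and 82.9%, 71.3%, 83.6% and 76.7% of its signal on the base at 127723398. In such loci the small remainder of the signal, away from the dominant base, set the width. Clusters of exactly 2 bases, where this can be counted, made up 39 members in Mo17-named root, 32 in Mo17-named shoot, 93 in B73 root and 45 in B73 shoot. These were 1.03%, 0.845%, 2.46% and 1.19% of members, against 6.46%, 6.22%, 11.1% and 8.29% of all 9804 loci. In 176 members (4.65%) the cluster had 2 bases in at least 1 set, and in 0 members in all 4. The shares of all loci were 19.8% and 1.23%. Since width chose the members, nothing is read from the difference.

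The dominant base lay at an end of the interquantile stretch in most clusters. In Mo17-named root it was the first (most upstream) base in 28.0% of members, the last in 31.3% and inside in 40.7%. The share inside was 46.9% in Mo17-named shoot, 34.6% in B73 root and 42.2% in B73 shoot. Among the members with at least 20 tags in all 4 sets, the shares inside were 42.6%, 50.9%, 41.6% and 46.4% for Mo17-named root, Mo17-named shoot, B73 root and B73 shoot.

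Signal of the members was compared over the 4 sets, since steady use across tissues is the property usually linked to broad promoters. The median signal was 12.3 (Mo17-named root), 15.5 (Mo17-named shoot), 6.24 (B73 root) and 11.9 (B73 shoot). The authors had scaled these values to a power law within each set. The B73 root set was lowest in 2374 of the 3788 members (62.7%), against 53.8% of all 9804 loci. The highest signal lay within 2-fold of the lowest in 566 members (14.9%, 95% interval 13.8% to 16.1%), against 14.5% of all 9804 loci. Within 4-fold the share was 55.8% (2115 members), against 53.3% of all loci. Taken as one list, the broad loci were thus about as even as all loci by this measure. After quantile normalization the shares within 2-fold were 27.8% of members and 23.0% of all loci, and on recovered tags 18.0% and 15.7%. Recovered tags, here and below, are those at each set's own dominant base, scaled to the set's total of such tags. They leave out the rest of the cluster, and the base can differ between sets. This alternative therefore changed the measure as well as the scale. The median ratio of highest to lowest signal was 3.58, with quartiles of 2.36 and 6.98. Without the B73 root set, 40.2% of members and 35.9% of all loci had their other 3 signals within 2-fold.

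The picture depended on how strong a locus was. Among loci with a geometric mean signal of at least 50, all 4 signals lay within 2-fold in 31.4% of 242 members (25.9% to 37.5%) and in 15.1% of 445 sharp loci (12% to 18.7%). Between 20 and 50 the shares were 23.1% of 675 members (20.1% to 26.4%) and 17.7% of 464 sharp loci (14.5% to 21.4%). Among members the share grew with signal, while among sharp loci it stayed between 12.8% and 17.7%. It also grew among the 3063 loci of mixed width class, with 10.1% below 5 and 20.6% at 50 and over, and among all loci, with 9.38% and 20.3%. Below a mean signal of 5 the order was turned round, with 7.11% of 760 members (5.49% to 9.16%) and 12.8% of 454 sharp loci (10.01% to 16.2%). That low end depended on the scale and the measure. On recovered tags of the dominant base, 14.9% of members and 13.0% of sharp loci below 5 lay within 2-fold. After quantile normalization the shares were 16.4% and 17.4%. At 50 and over, members stayed above sharp loci on recovered tags (24.4% and 16.6%), after quantile normalization (47.5% and 21.3%) and without the B73 root set (57.9% and 31.5%). That range has no upper bound, so the groups were not matched in signal within it. Signals reached 52751 among sharp loci (B73 root) and 1942 among members (Mo17-named shoot). Loci in dense runs, 13.2% of all sharp loci and 0.290% of members, were kept.

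**Figure D2:**
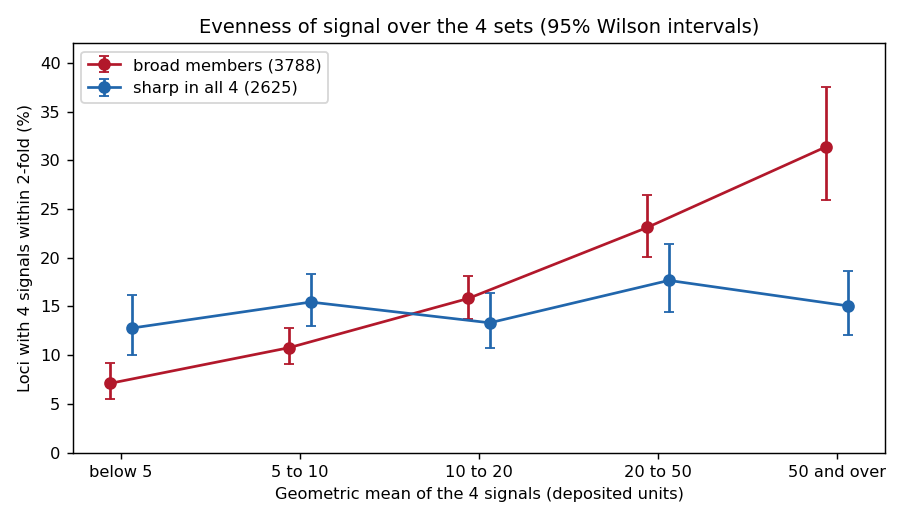
Share of loci whose 4 signals lay within 2-fold of each other (%, vertical axis) by the geometric mean of the 4 signals (deposited units, horizontal axis), for the 3788 broad members and the 2625 sharp loci. Points are shares and bars are 95% Wilson intervals (counting error only): members climb to 31.4% at 50 and over, where sharp loci stand at 15.1%.

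The 4 strongest members ranged from nearly even to leaning toward one tissue or set. The locus on chromosome 4 described above had signals of 661 in Mo17-named root, 426 in Mo17-named shoot, 557 in B73 root and 321 in B73 shoot. It was somewhat higher in root than in shoot in both lines, by 0.63 (Mo17-named) and 0.79 (B73) on the log2(signal + 1) scale. The second, on chromosome 1 at 293240753 to 293240849 (plus strand), had signals of 973, 282, 241 and 264 in the same order of sets. It was high in the Mo17-named root set alone, while the other 3 sets were close together.

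The third, on chromosome 2 at 5275237 to 5275344 (plus strand), was nearly even, with signals of 390, 491, 334 and 248 in Mo17-named root, Mo17-named shoot, B73 root and B73 shoot. It was also dispersed, with scores between -1.88 and -1.45, although its widths were 14, 18, 12 and 36 bp in that order. The fourth, on chromosome 6 at 133381107 to 133381274 (plus strand), leaned to shoots, with signals of 228, 630, 199 and 541 in that order. Its root to shoot difference was close in the lines, -1.46 in the Mo17-named sets and -1.44 in the B73 sets on the log2 scale. In all 4 of these loci every set had the same dominant base.

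The most even member with a signal of at least 5 in all sets lay on chromosome 8 at 167003718 to 167003854 (minus strand). Its signals were 36.8 in Mo17-named root, 38.8 in Mo17-named shoot, 37.7 in B73 root and 36.3 in B73 shoot, within 1.07-fold of each other. Its widths were far less alike, at 68, 74, 135 and 42 bp in that order. The 4 members ranked as most even differed in this. The third, on chromosome 3 at 193365475 to 193365519 (plus strand), was 45 bp wide in every set, with signals of 20.1, 17.8, 19.6 and 18.3. The fourth, on chromosome 9 at 150472967 to 150473135 (minus strand), was 169 bp wide in every set with signals of 11.4, 12.5, 13.0 and 12.1. Its dominant base was at 150473126 in Mo17-named root and at 150472967, the downstream end, in the other 3 sets.

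Root was set against shoot within each line, as the study's design names this comparison. A locus was counted as different when log2(signal + 1) differed by at least 2, that is 4-fold, and the higher signal was at least 1. In the Mo17-named sets, 71 members (1.87%) were higher in root, against 5.11% of all 9804 loci, and 409 (10.8%) were lower in root, against 9.32% of all loci. In the B73 sets, 47 members (1.24%) were higher in root, against 3.9% of all loci, and 612 (16.2%) were lower in root, against 14.6%. The shares higher in root were thus below those of all loci in both lines. Among sharp loci 10.3% were higher in root in the Mo17-named sets and 8.61% in the B73 sets. Broad loci therefore seldom passed the size rule toward root, while their share toward shoot was near the background.

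The median root to shoot difference of members was -0.12 on the log2 scale in the Mo17-named sets, against 0.02 for all loci, and -0.65 in the B73 sets, against -0.47 for all loci. The sign of the members' median depended on the scaling of the sets, so only its distance from all loci is used. That distance was -0.13 in the Mo17-named sets and -0.19 in the B73 sets. On recovered tags it was -0.10 in both lines, and after quantile normalization it was -0.12 in the Mo17-named sets and -0.19 in the B73 sets. The split of the called members also moved with the scaling and the measure. On recovered tags, 197 members were higher and 316 lower in root in the Mo17-named sets, and 272 higher and 308 lower in the B73 sets. After quantile normalization the B73 counts were 127 higher and 357 lower (3.35% and 9.42%, against 7.35% and 8.55% of all loci). On recovered tags the share of members higher in root (5.20% Mo17-named, 7.18% B73) still stood below that of all loci (9.06% and 11.5%). The shares lower in root were 8.34% and 8.13%, against 7.68% and 7.89% of all loci.

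**Figure D3:**
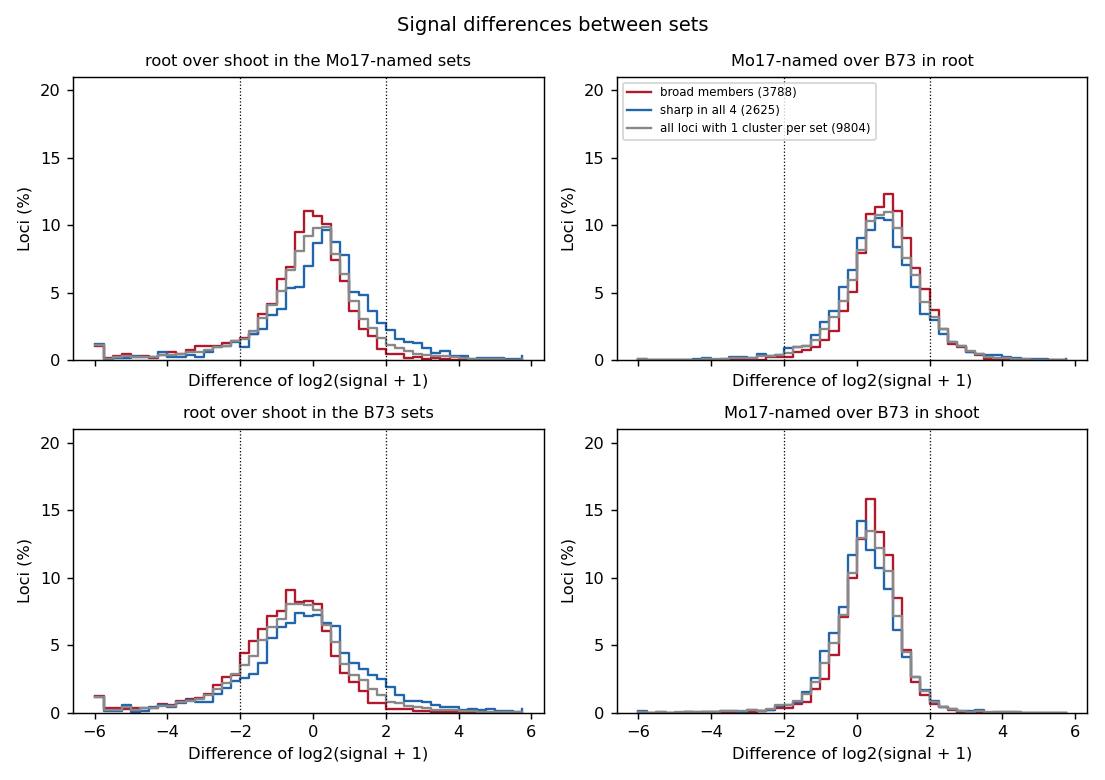
Distribution of the difference in log2(signal + 1) (horizontal axis, values beyond 6 drawn in the end bins) for root over shoot in the 2 lines (left panels) and for Mo17-named over B73 in the 2 tissues (right panels). Lines give the share of loci (%) among 3788 members, 2625 sharp loci and all 9804 loci with 1 cluster of each set, and dotted lines mark 4-fold: the members' curve lies lowest to the right of 2 in both root over shoot panels.

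The calls in one line were compared with those in the other, which share no sets. Of the members called lower in root, 338 were called in both lines, 82.6% of the 409 in the Mo17-named sets and 55.2% of the 612 in the B73 sets. Over all 9804 loci the overlap was 79.6% of the calls in the Mo17-named sets and 50.8% of those in the B73 sets, so the members were near the background. Loci called lower in root in both lines were 7.43% of the 9804. Of those called higher in root, 23 were called in both lines, 32.4% of the 71 and 48.9% of the 47. Over all loci these overlaps were higher, 41.5% and 54.5%, and 2.12% of all loci were called so. No member was called in opposite directions in the 2 lines. Of the 9804 loci, 13 were called higher in root in the Mo17-named sets and lower in root in the B73 sets, and 2 the other way. Across the 3788 members the root to shoot differences of the 2 lines had a Spearman's rho of 0.54, against 0.53 across all 9804 loci. This is a description over loci that share the same 4 sets.

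The members with the largest shoot excess in both lines reached very high shoot signals. On chromosome 3 at 12613423 to 12613619 (minus strand), the signal was 1.39 in Mo17-named root and 863 in Mo17-named shoot, and 0.400 in B73 root and 737 in B73 shoot. Behind the root values stood 4 tags at the dominant site in the Mo17-named set and 1 tag in the B73 set. Counted at each set's own dominant site and scaled to the tags of each set, shoot had 1205 times the root tags in the Mo17-named sets (95% exact interval 470 to 4425) and 1138 times in the B73 sets (204 to 44978). The root widths of 102 bp in the Mo17-named set and 42 bp in the B73 set rest on those few tags.

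The other 2 such loci lay on chromosome 6 at 6262203 to 6262314 and on chromosome 2 at 56737633 to 56737837, both on the minus strand. The locus on chromosome 6 had signals of 0.276 in Mo17-named root and 474 in Mo17-named shoot, and of 0.550 in B73 root and 510 in B73 shoot. The locus on chromosome 2 had signals of 1.66 in Mo17-named root and 1502 in Mo17-named shoot, and of 2.26 in B73 root and 987 in B73 shoot, and its dominant shoot base was 56737720 in both lines. Its widths were 44, 72, 131 and 107 bp in Mo17-named root, Mo17-named shoot, B73 root and B73 shoot. The root widths rest on 2 tags at the dominant site in the Mo17-named set and 4 in the B73 set. The root clusters of the chromosome 6 locus, 14 bp (Mo17-named) and 32 bp (B73) wide, rest on 1 and 2 such tags. These 3 loci were picked for this excess, so the gap between their tissues is a description.

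The largest root excess was smaller. On chromosome 3 at 186125959 to 186126104 (minus strand), the signal was 88.8 in Mo17-named root and 1.58 in Mo17-named shoot, and 52.0 in B73 root and 1.76 in B73 shoot. The differences were 5.12 and 4.26 on the log2 scale. The lowest count behind them was 2 tags, in Mo17-named shoot, which gives a ratio of 133 for root over shoot (36.3 to 1104). Its width stayed between 140 and 145 bp in all 4 sets.

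Another root-rich member, on chromosome 2 at 217454698 to 217454736 (plus strand), was 39 bp wide in every set. Its signals were 37.1 in Mo17-named root and 1.24 in Mo17-named shoot, and 53.1 in B73 root and 1.76 in B73 shoot. The third, on chromosome 3 at 131731515 to 131731546 (minus strand), had signals of 56.0 in Mo17-named root and 2.92 in Mo17-named shoot, and 55.3 in B73 root and 2.01 in B73 shoot, and widths of 24, 27, 25 and 24 bp in that order. These 3 loci were picked for their signal, and their widths, which were not used to rank them, differed by at most 5 bp between sets. Their shoot widths rest on few tags at the dominant site. In Mo17-named shoot and B73 shoot these were 2 and 7 in the first locus, 5 and 7 in the second and 11 and 6 in the third. A width over 10 bp in every set was also a condition of being a member.

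The Mo17-named sets were set against the B73 sets within each tissue. In root, 364 members (9.61%) were at least 4-fold higher in the Mo17-named set, against 10.1% of all 9804 loci, and 28 (0.739%) were lower, against 1.81%. In shoot, 46 members (1.21%) were higher in the Mo17-named set, against 1.86% of all loci, and 35 (0.924%) were lower, against 1.7%. Large differences between lines were thus rare in shoot. In root they ran mostly one way. That direction depended on scale, since recovered tags gave 121 members higher and 111 lower in the Mo17-named root set, and quantile normalization gave 66 and 65. In shoot these scales gave 57 higher and 75 lower, and 38 higher and 65 lower. The median difference in root was 0.83 on the log2 scale (all loci 0.73) and -0.0046 on recovered tags (all loci -0.06), and in shoot it was 0.38 (all loci 0.32) and 0.06 on recovered tags (all loci 0.03). Few members differed by line in both tissues. A count of 16 were higher in the Mo17-named sets in both, 4.40% of the 364 in root and 34.8% of the 46 in shoot. Over all loci the overlaps were 6.90% and 37.4%. A count of 12 were lower in both, 42.9% of the 28 and 34.3% of the 35, against overlaps of 45.2% and 47.9% over all loci. Of all 9804 loci, 0.694% were higher in both and 0.816% lower in both.

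The member with the largest Mo17-named excess in both tissues lay on chromosome 8 at 131061826 to 131062002 (minus strand). Its signal was 23.0 in Mo17-named root and 2.46 in B73 root, and 47.2 in Mo17-named shoot and 1.80 in B73 shoot. Its widths were 36 bp in Mo17-named root and 138 bp in B73 root, and 41 bp in Mo17-named shoot and 138 bp in B73 shoot. The B73 widths rest on 13 tags in root and 6 in shoot at the dominant site. On recovered tags its difference in root was 1.27 on the log2 scale, below the 4-fold rule. It was 1.89 after quantile normalization, against 2.79 as deposited. Its dominant base held 45.4% of the signal in Mo17-named root and 88.5% in B73 root, which enters the value on recovered tags. A second such member, on chromosome 1 at 22628468 to 22628565 (plus strand), had signals of 84.0 in Mo17-named root and 2.49 in B73 root, and 49.5 in Mo17-named shoot and 6.84 in B73 shoot. On recovered tags it had the larger differences, 4.05 in root and 3.16 in shoot on the log2 scale. The third, on chromosome 9 at 106542689 to 106542854 (minus strand), had signals of 36.1 in Mo17-named root and 2.67 in B73 root, and 39.2 in Mo17-named shoot and 5.53 in B73 shoot. Its difference in root, 3.34 on the log2 scale, was 1.27 on recovered tags (52 tags in Mo17-named root and 9 in B73 root), below the 4-fold rule. After quantile normalization it was 2.45. Here too the dominant base held unlike shares of the signal, 20.5% in Mo17-named root and 54.7% in B73 root.

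The largest B73 excess in both tissues was on chromosome 10 at 141520400 to 141520516 (minus strand). Its signal in root was 3.09 (Mo17-named) and 43.2 (B73), and in shoot it was 3.68 (Mo17-named) and 50.2 (B73). The dominant base was at 141520463 in both B73 sets, and at 141520405 and 141520400 in the Mo17-named root and shoot sets. Here the widths were alike, 67 bp in both Mo17-named sets and 64 bp in both B73 sets. On chromosome 5 at 213385425 to 213385611 (plus strand), the signal was 9.16 in Mo17-named root and 104 in B73 root, and 8.99 in Mo17-named shoot and 187 in B73 shoot. On chromosome 3 at 191738709 to 191738867 (plus strand), it was 3.95 in Mo17-named root and 49.7 in B73 root, and 4.16 in Mo17-named shoot and 133 in B73 shoot. These 6 loci were likewise picked for the difference between the lines.

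Signal and width ordered the sets differently. Across the 3788 members, signal was most alike within a tissue, with a Spearman's rho of 0.777 between the 2 root sets and 0.803 between the 2 shoot sets. Within a line, between root and shoot, rho was 0.503 for the Mo17-named sets and 0.459 for the B73 sets. Width showed the opposite order, with 0.765 within the Mo17-named sets and 0.712 within the B73 sets, against 0.608 between the roots and 0.658 between the shoots. Of the pairs that shared neither, Mo17-named root with B73 shoot had 0.639, above that between the roots. Mo17-named shoot with B73 root had 0.591, so the lowest values were both in pairs with B73 root. For the shape score, rho was 0.753 within the Mo17-named sets and 0.613 within the B73 sets, against 0.561 between the roots and 0.657 between the shoots, so for the B73 sets the order was not kept. These correlations are over loci, which share the same 4 sets and their depth, and they are given as a description.

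The squared deviations of the 4 values of each member from their mean were split into a part by tissue, a part by line and the rest. For log2 signal, tissue held 72.3%, line 17.4% and the rest 10.3%. For log2 width, tissue held 26.8%, line 49.2% and the rest 24.0%, and for the shape score the parts were 33.9%, 45.2% and 20.9%. Sharp loci gave similar parts, with 69.5% of signal by tissue and 42.2% of width by line, so this order was also seen outside the broad loci. Among the 1189 members with at least 20 tags in all 4 sets the parts lay closer together. For signal, tissue held 50.7%, line 27.2% and the rest 22.1%. For width, tissue held 32.9%, line 40.5% and the rest 26.6%. In those deep members the width rho was 0.803 within the Mo17-named sets and 0.713 within the B73 sets, against 0.732 between the roots and 0.745 between the shoots. Mo17-named root with B73 shoot, which share neither, had 0.754, and Mo17-named shoot with B73 root had 0.663. The order of width was thus not kept for the B73 sets at this depth, while the order of signal was (0.685 and 0.631 within lines, against 0.720 and 0.806 within tissues).

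**Figure D4:**
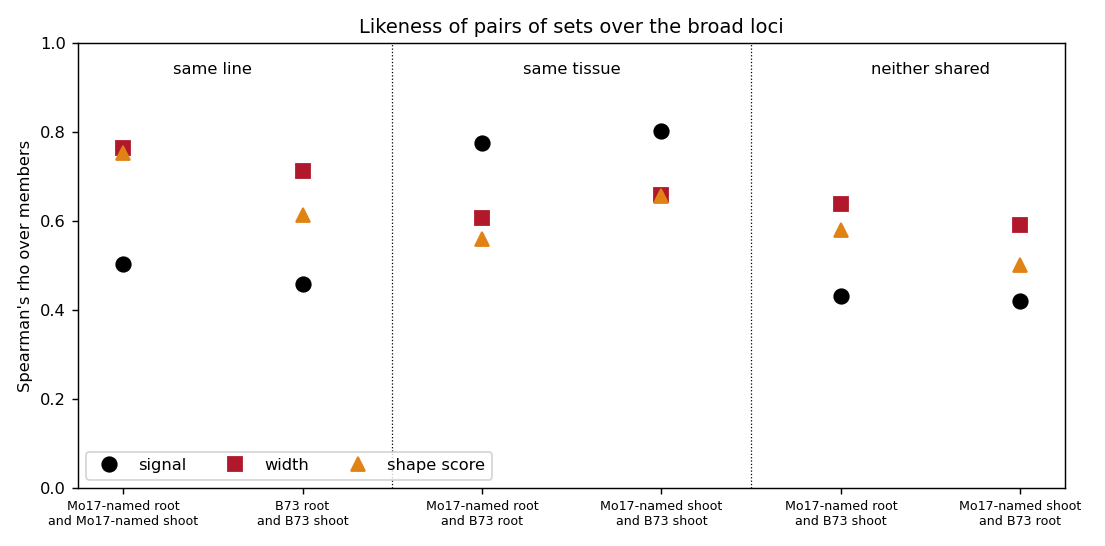
Spearman's rho across the 3788 members (vertical axis) for each pair of sets (horizontal axis), for signal (circles), width (squares) and shape score (triangles). Pairs are grouped into same line, same tissue and neither shared: signal is highest within tissue (0.777 and 0.803) and width is highest within line (0.765 and 0.712).

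Changes in signal said little about changes in width. Across members, the difference in log2 signal and the difference in log2 width had a rho of 0.012 for root over shoot in the Mo17-named sets and 0.081 in the B73 sets. For Mo17-named over B73, rho was 0.016 in root and 0.090 in shoot. Among the 409 members at least 4-fold lower in Mo17-named root than in shoot, the root clusters had a median width of 55 bp and the shoot clusters one of 60 bp, the same medians as for the 3308 members that passed neither rule. The shape score of such members had a median of -0.46 in root and -1.08 in shoot. Among the 612 lower in B73 root it was -0.29 in root and -0.99 in shoot. Among such members with at least 20 tags in all 4 sets the medians lay closer, at -1.11 in root and -1.23 in shoot for 15 members of the Mo17-named sets, and at -0.88 in root and -1.15 in shoot for 35 members of the B73 sets.

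Dominant bases of the members were compared, with the moves by tissue alone and by line alone already left out by the choice. All 4 sets had the same dominant base in 944 members (24.9%), against 34.4% of all 9804 loci and 52.2% of sharp loci. With the moved loci kept, the share of broad loci was 22.9%. A cluster of at most 10 bp leaves few bases for the dominant base to move over. Width chose both groups and the moved loci were left out of the members only, so nothing is read from the difference. There were 2 different bases in 1554 members (41.0%), 3 in 1072 (28.3%) and 4 in 218 (5.76%). The shares of all 9804 loci were 43.1%, 19.1% and 3.28%. The 4 bases lay a median of 23 bp apart at the extremes, with quartiles of 1 and 58 bp. Among members with at least 20 tags in all 4 sets the share with 1 base was 41.5%. In 159 members the sets agreed in crossed pairs, each tissue of one line with the other tissue of the other line. This compares with the 116 loci moved by tissue and the 212 moved by line that were left out of the same 4116.

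The B73 root set stood apart. In 801 members (21.1%) it alone had a different dominant base, while the other 3 agreed, against 19.9% of all 9804 loci, so the members' share was near the background. The Mo17-named root, Mo17-named shoot and B73 shoot sets stood alone in 215, 157 and 222 members. In 242 of the 801 members (30.2%) the B73 root base was exactly 1 bp downstream of the base shared by the others, and in 2 it was 1 bp upstream. These 242 were 6.39% of all members, against 9.46% of all 9804 loci. Width chose the members and bears on how far a dominant base can move, so nothing is read from the difference. Of the 1952 loci in which B73 root alone differed, 47.5% showed the shift. In another 456 of the 801 members it was more than 10 bp away. Among the sets that stood alone otherwise, a shift of 1 bp downstream was found in 1 of 215, 1 of 157 and 3 of 222 members.

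The same shift appeared in each pair with B73 root. The B73 root base was 1 bp downstream of the B73 shoot base in 10.1% of members and 1 bp upstream in 0.528%. The Mo17-named root base was 1 bp upstream of the B73 root base in 9.93% and downstream in 0.370%, and for Mo17-named shoot these shares were 10.5% and 0.290%. Between the other sets, shares at 1 bp were between 0.502% and 0.660% in either direction. The downstream end of the interquantile stretch was also 1 bp further downstream in B73 root than in B73 shoot in 11.9% of members. Among deep members, 123 of the 251 in which B73 root alone differed showed the shift, so it was also present where all sets had at least 20 tags. B73 root was the set with 16 PCR cycles and the fewest tags, and their part in the result was not tested.

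**Figure D5:**
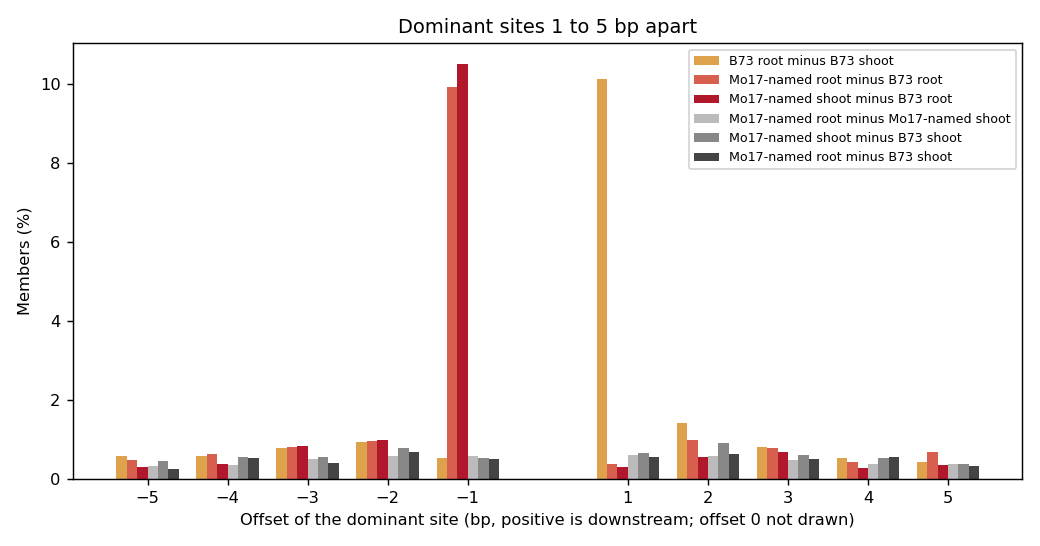
Share of the 3788 members (%, vertical axis) by the distance between the dominant bases of 2 sets (bp, first set minus second, positive is downstream, horizontal axis), for offsets of 1 to 5 bp in either direction and all 6 pairs of sets. The 3 pairs with B73 root reach about 10% at the offset that puts the B73 root base 1 bp downstream, and the other bars stay low.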

How the data were processed

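CAGE libraries were made from 5 µg of total RNA, with EcoP15I tags of 27 bp, per the labels' protocols. The tags carry no molecular identifier in those protocols. Per the submitters' processing notes, reads were handled with Bowtie2 2.0.4. Genome build, clustering tool and thresholds were not given in the sources used here. In each set, the deposited signal follows a power law that the authors applied. Its exponent was 1.01 in Mo17-named root, 0.877 in Mo17-named shoot, 1.09 in B73 root and 0.888 in B73 shoot. Inverting it gave whole tags at 100% of dominant sites within 0.01 tags. The deposited shape score matched 2 plus the sum of p log2 p for clusters of 2 positions within 0.002 in 100% of cases.

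All 75681 clusters were joined on overlap of at least 1 bp on the same strand. The columns carry no library, so no test across replicates was possible and the size rule was 4-fold on log2(signal + 1) with a higher signal of at least 1. The pseudocount of 1 understates differences of weak loci. Width is the stretch from the 10th to the 90th signal percentile. The members, lists and comparisons were chosen with earlier results of these data known.

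Named loci were the 4 strongest by geometric mean signal, the 4 most even with a signal of at least 5 in every set, the 3 with the largest excess by tissue and by line in each direction, the 3 widest, and the 3 at each end of the shape score. Alternatives changed the pseudocount, fold, signal minimum, scaling, tag minimum, width limit and join. The join, the size rule and the tag recovery were tested on simulated data. Wilson intervals and exact binomial (Clopper-Pearson) intervals are at 95% and cover counting error only. Tools were pandas 2.3.3, numpy 2.4.6, scipy 1.17.1 and matplotlib 3.10.9 under Python 3.11.15.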

Additional observations from a re-analysis of the deposited data

How the results depend on the processing

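No paired analysis was possible because the deposited columns carry no library or replicate number, and for the same reason leaving out a replicate could not be run. With 1 value per set, differences between sets cannot be told apart from differences between libraries.

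With 2-fold in place of 4-fold, 396 members were higher and 833 lower in root in the Mo17-named sets, and 246 and 1484 in the B73 sets. For Mo17-named over B73, 1584 (41.8%) were higher and 129 (3.41%) lower in root, against 38.1% and 5.94% of all loci. In shoot 680 (18.0%) were higher and 169 (4.46%) lower, against 17.7% and 6.77% of all loci. With a pseudocount of 0.1, 71 members (1.87%, all loci 4.89%) were higher in B73 root than in shoot and the median was -0.74. For Mo17-named over B73 it gave 593 higher members (15.7%, all loci 15.2%) and a median of 0.96 in root. In shoot it gave 84 (2.22%, all loci 2.94%) and 0.42.

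After quantile normalization the root to shoot median turned to 0.031 in the Mo17-named sets and was -0.062 in the B73 sets. In B73 root 127 members (3.35%, all loci 7.35%) were higher and 357 (9.42%, all loci 8.55%) lower. For Mo17-named over B73, quantile normalization gave 66 higher (1.74%, all loci 2.68%), 65 lower (1.72%, all loci 3.38%) and a median of 0.10 in root. In shoot it gave 65 lower (1.72%, all loci 2.71%) and a median of 0.11. On recovered tags the root to shoot medians turned to 0.33 (197 higher) in the Mo17-named sets and 0.37 (272 higher, 308 lower) in the B73 sets. In the Mo17-named sets 5.20% were higher (all loci 9.06%). In the B73 sets 7.18% were higher and 8.13% lower (all loci 11.5% and 7.89%). For Mo17-named over B73, recovered tags gave -0.0046 in root, a turned sign. There 121 were higher (3.19%, all loci 4.47%) and 111 lower (2.93%, all loci 5.20%). In shoot they gave 0.063 with 75 lower (1.98%, all loci 3.44%). The cause was not tested.

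The share of members within 2-fold over the 4 sets was 27.8% after quantile normalization (all loci 23.0%) and 18.0% on recovered tags (all loci 15.7%). It was 40.2% without B73 root, an alternative added after the data had been seen.

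With a width limit of 20 bp the median widths were 62, 66, 57 and 64.5 bp in Mo17-named root, Mo17-named shoot, B73 root and B73 shoot, and the median scores were -0.88, -0.89, -0.71 and -0.84. With at least 20 tags in all sets, median widths were 48 bp in B73 root and 56 bp in B73 shoot, and median scores were -0.94, -0.89, -0.80 and -0.82 in the same order of sets. The share with 1 dominant base was 41.5% with at least 20 tags. In alternatives added later it was 32.0% with bases at most 1 bp apart taken as the same, 46.1% without B73 root and 22.9% with the moved loci kept.

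Of all the alternative values for the main results, 50 kept their direction and size, 50 moved and 4 reversed. Of those for named loci, 64 did and 8 moved, with 0 reversed. Tag numbers limit the weak loci, with medians of 36, 37, 16 and 25 tags at the dominant base of members in the same order of sets.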

Other observations

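The 1 bp downstream shift of the B73 root dominant base was also counted outside the broad loci. It was found in 13.7% of sharp loci and 10.6% of loci of mixed width class, against 6.39% of members. Width bears on this. Where B73 root alone differed, its base was over 10 bp away in 0 of 555 sharp loci and in 456 of 801 members. Nothing is therefore read from the difference. B73 root alone differed in 555 of 2625 sharp loci, and in 359 of these (64.7%) its base was 1 bp downstream of the base shared by the other 3 sets, with 22 at 1 bp upstream. Among the 3063 loci of mixed width class it alone differed in 596, with 326 (54.7%) at 1 bp downstream and 10 at 1 bp upstream. Clusters of exactly 2 bases made up 15.2% of sharp loci and 6.20% of loci of mixed width class in Mo17-named root, against 22.7% and 13.0% in B73 root.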
